A study of Oryctolagus cuniculus with 16 samples.

Results

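CALCRL and NPY1R, 2 of the 13788 named genes in the counts, encode receptors for vasoactive peptides, and their levels are described here across the layers, locations and flow conditions of the rabbit basilar artery. They were picked as a vasodilator and a vasoconstrictor receptor from their normalized levels in all 16 libraries, so those levels and the differences among them are given as a description, with no test. Both genes had counts in every library, from 92 to 23276 for CALCRL and from 122 to 3480 for NPY1R, and both passed the filter on low values in every comparison.

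The tissue came from female New Zealand white rabbits 24 h after bilateral ligation of the common carotid arteries, which raises flow through the basilar artery, or after sham surgery. Rabbits 3 and 4 were sham animals and rabbits 5 and 6 were ligated. From each rabbit, the intima and the media of the straight basilar artery (BA) and of the wall beside the apex of its terminal bifurcation, the basilar terminus (BT), were laser-microdissected and sequenced separately, which gave 8 groups of 2 libraries. The intima strips held endothelial cells (ECs) and also some vascular smooth muscle, and each library pooled sections of 1 animal.

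CALCRL, the calcitonin receptor-like receptor, needs an accessory protein to bind its ligands. It pairs with a receptor activity-modifying protein (RAMP), which sets whether the receptor answers calcitonin gene-related peptide (CGRP) or adrenomedullin, and it couples through Gs to cAMP, a route to relaxation of arteries. NPY1R, the Y1 receptor, answers neuropeptide Y (NPY), a co-transmitter of sympathetic nerves, couples through Gi, and is known in smooth muscle as a receptor for constriction. In the rabbit assembly mOryCun1.1 of RefSeq, CALCRL lies between the protein-coding genes TFPI and ZSWIM2, and NPY1R lies next to its family member NPY5R. NPY5R itself was not analysed here.

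Intimal libraries held 5211886 to 17686105 counts on named genes and medial libraries 2154863 to 11219236. Levels are given as CPM, the share of a gene in its library on a scale that TMM factors make common to all libraries. A count of 3, the 95% upper limit for a count of 0, equals 0.169 to 1.58 CPM, for counting error only. The endothelial markers (10 of 10 genes measured) summed to 1221 to 5855 CPM in the intima and 440 to 1598 CPM in the media, and 7 of the 10 were called higher in the intima. The smooth muscle markers (7 of 9 measured) summed to 12030 to 83880 CPM in the intima and 83210 to 141700 CPM in the media, and 6 of the 7 were called lower in the intima. Of all 9056 genes tested between layers, 390 were called higher and 329 lower in the intima. Pericyte markers summed to 187 to 688 CPM in the intima and 622 to 1458 CPM in the media. Markers of brain parenchyma (5 of 6 measured) summed to at most 10.9 CPM and those of nerves (2 of 5 measured) to at most 4.20 CPM in any library.

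CALCRL was higher in ligated than in sham rabbits in both intimal tissues and in the media of the BT, and in the media of the BA it was high in only 1 of the 2 ligated rabbits. In the BA intima, CALCRL stood at 73.0 and 168 CPM in sham rabbits 3 and 4 and at 1002 and 989 CPM in ligated rabbits 5 and 6. The lowest ligated library was 5.89 times the highest sham library, and the ratio of the means was 8.27 (log2 fold change 3.06 ± 0.55 SE, n = 2 against 2). In bulk tissue, such a difference does not tell a change in RNA per cell from a change in how many cells of a type were collected.

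At the BT, intimal CALCRL was 64.3 and 261 CPM in sham rabbits 3 and 4 and 2011 and 972 CPM in ligated rabbits 5 and 6. These groups did not overlap either, and the highest value of the gene in any library was that of rabbit 5 at the BT. The ratio of the means was 9.18 (log2 fold change 3.21 ± 0.79 SE), and without sham rabbit 4 the log2 fold change was 4.51 here and 3.75 in the BA intima. Ranked by log2 fold change, CALCRL stood at place 197 of 9273 genes tested in the BT intima and at place 238 of 8974 in the BA intima.

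**Figure D1:**
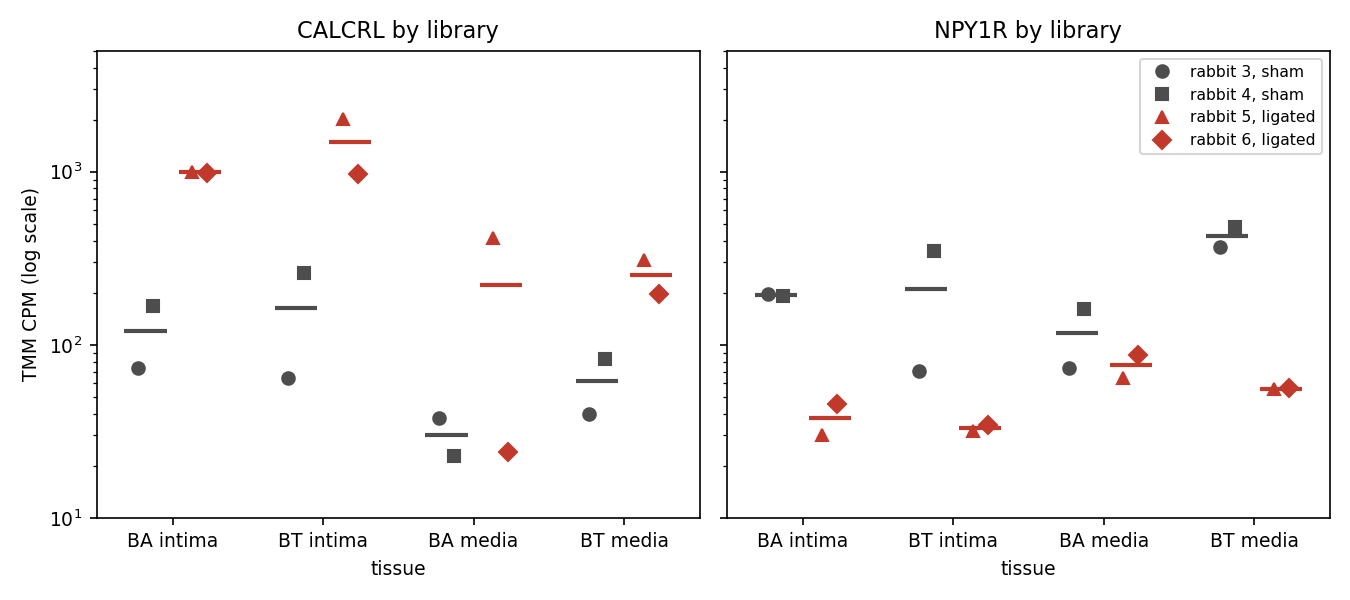
TMM CPM of CALCRL (left) and NPY1R (right) in each of the 16 libraries, on a log scale, by tissue. Each symbol is 1 rabbit and horizontal bars are the means of 2 rabbits. CALCRL in the 4 ligated intimal libraries lies between 972 and 2011 CPM, above every other library, and NPY1R in the same 4 libraries lies between 30.0 and 45.5 CPM, below every other library.

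The media held less CALCRL. In the BT media it was 39.8 and 83.2 CPM in sham rabbits 3 and 4 and 308 and 198 CPM in ligated rabbits 5 and 6, a ratio of means of 4.11 (log2 fold change 2.04 ± 0.43 SE) with no overlap. In the BA media it was 37.6 and 22.9 CPM in the sham rabbits, 416 CPM in ligated rabbit 5 and 24.1 CPM in ligated rabbit 6. The library of rabbit 6 thus lay among the sham libraries, and the ratio of means of 7.28 (log2 fold change 2.86 ± 1.03 SE) rested on rabbit 5, since without that rabbit the log2 fold change was -0.32.

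The same medial libraries differed in endothelial markers. ESAM, an endothelial marker with nearly the same mean in both layers, was 367 to 400 CPM in the ligated BA media. With ESAM included, the endothelial markers summed to 1047 CPM in the BA media of rabbit 5 and to 440 CPM in that of rabbit 6, the lowest sum of any library. PECAM1, an adhesion molecule of ECs, stood at 148 CPM in the former and 5.77 CPM in the latter. RAMP2, a partner protein of CALCRL, was 224 CPM in the former and 38.0 CPM in the latter. Their part in the medial CALCRL values was not tested.

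CALCRL thus separated ligated from sham libraries without overlap in 3 of 4 tissues. The share of all genes tested that were higher in ligated rabbits without overlap was 15.4% for BA intima, 20.4% for BT intima and 25.7% for BT media, and it was 21.3% for BA media, where CALCRL was not among them. NPY1R was lower in ligated rabbits without overlap in 3 of 4 tissues, beside 20% of genes for BA intima, 25.5% for BT intima and 22.9% for BT media, and 25.6% for BA media, where it was not. Since the genes were picked from these levels, nothing is read from their counts against these shares.

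NPY1R was lower after ligation in the intima at both locations and in the media of the BT. In the BA intima, NPY1R was 196 and 191 CPM in sham rabbits 3 and 4 and 30.0 and 45.5 CPM in ligated rabbits 5 and 6. The sham values nearly coincided, the lowest of them was 4.20 times the highest ligated value, and the ratio of the means, sham over ligated, was 5.13 (log2 fold change -2.36 ± 0.50 SE). At the BT, intimal NPY1R was 70.7 and 350 CPM in sham rabbits 3 and 4 and 31.8 and 34.6 CPM in ligated rabbits 5 and 6. Here the ligated libraries were close together and the sham libraries far apart, with a ratio of means of 6.34 (log2 fold change -2.66 ± 0.77 SE). Without sham rabbit 4, the log2 fold change in the BT intima was -1.12.

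The BT media had the most NPY1R of any group under sham conditions. It held 366 and 480 CPM in rabbits 3 and 4 and 55.2 and 56.3 CPM in ligated rabbits 5 and 6. The ratio of the means was 7.58 (log2 fold change -2.91 ± 0.35 SE), at place 458 of 8783 genes ranked from the most lowered. In the BA media, NPY1R was 73.1 and 161 CPM in the sham rabbits and 64.4 and 87.5 CPM in the ligated rabbits. These libraries overlapped, and the ratio of 1.54 (log2 fold change -0.60 ± 0.48 SE) was about the size of its error. Whether the change with ligation differed between the BA and the BT was not tested.

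**Figure D2:**
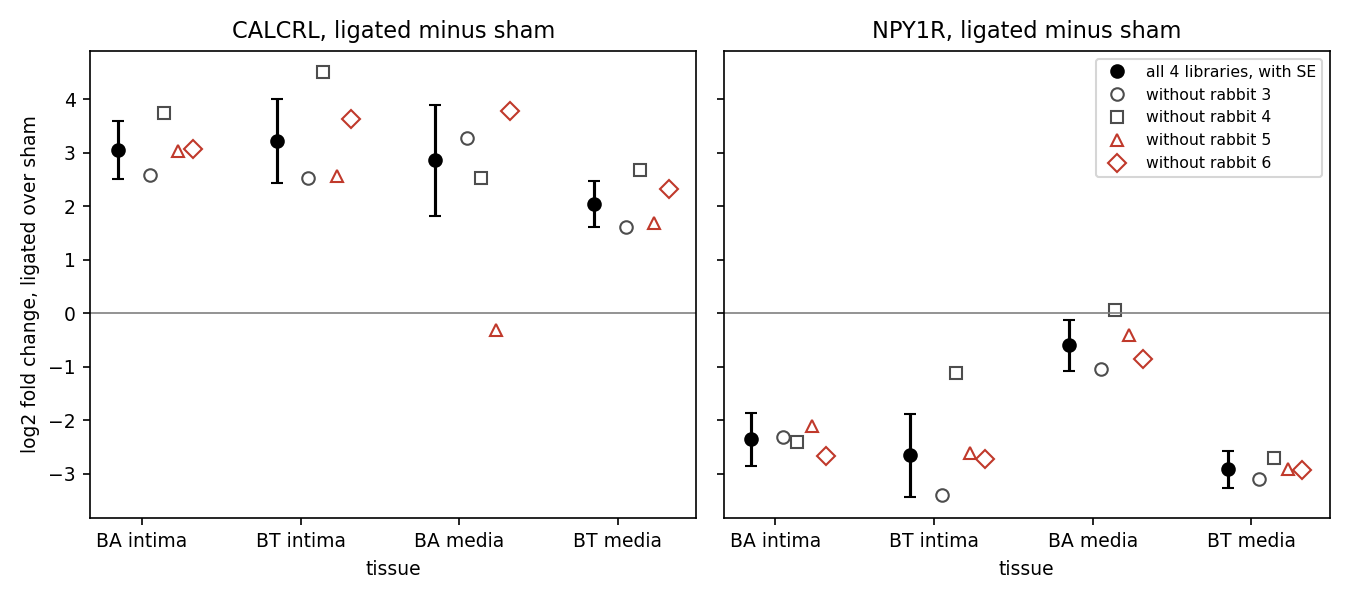
Log2 fold change of CALCRL (left) and NPY1R (right), ligated over sham, in each tissue. Filled circles are the fit of 4 libraries with its standard error and open symbols are fits without 1 rabbit. Values of CALCRL are 1.605 or above except in the BA media, where leaving out rabbit 5 gives -0.32, and those of NPY1R stay below -1.12 except in the BA media, where leaving out rabbit 4 gives 0.06.

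The differences of NPY1R stood beside differences in markers of other cells. Markers of fibroblasts and leptomeningeal cells (7 of 8 measured) summed to 5622 to 12590 CPM in sham media and to 3301 to 4906 CPM in ligated media, without overlap. In the intima they summed to 636 to 4831 CPM in sham and 397 to 2645 CPM in ligated libraries. Smooth muscle markers overlapped between sham media, at 83210 to 119200 CPM, and ligated media, at 84370 to 141700 CPM. In the BT media, 104 of all 8783 genes tested were called lower by edgeR. Of the 7 markers there, 3 had a positive log2 fold change and 2 were called lower. These were MYH11, the heavy chain of smooth muscle myosin (log2 fold change -1.70 ± 0.33 SE, q = 0.0221), and LMOD1, leiomodin (-1.505, q = 0.0438), while DES, desmin, went from a mean of 918 to 1883 CPM (q = 0.229). Among the 5 pericyte markers, RGS5 was 95.3 to 159 CPM in the sham and 10.9 to 12.3 CPM in the ligated BT media (log2 fold change -3.43 ± 0.49 SE, q = 0.00459, edgeR), and ABCC9 was called higher there. In the BA intima the pericyte markers summed to 570 to 688 CPM in sham and 380 to 444 CPM in ligated rabbits, without overlap. Of the 5, 2 had a positive log2 fold change there, and ABCC9 was 13.4 to 22.9 CPM in sham and 141 to 162 CPM in ligated rabbits. MYH11 in this tissue was 660 to 1707 CPM in sham and 362 to 409 CPM in ligated rabbits (q = 0.752, edgeR), without overlap. Of the 7 smooth muscle markers, 2 had a positive log2 fold change there. ACTA2 overlapped, at 33310 to 71630 CPM in sham and 39450 to 43520 CPM in ligated rabbits. The part of these cell types in the NPY1R values was not tested.

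Counts of NPY1R were also set against those of smooth muscle genes of the same library. In the BT media, NPY1R had 3.77 and 7.06 counts per 1000 counts of ACTA2, smooth muscle actin, in sham rabbits 3 and 4. It had 0.776 and 0.891 in ligated rabbits 5 and 6. Per count of MYH11 the sham values were 0.172 and 0.333 and the ligated values 0.124 and 0.0879, a smaller distance. For the BT intima, the sham values per 1000 counts of ACTA2 were 3.79 and 18.7 and the ligated values 3.10 and 0.764. Per count of MYH11 they were 0.169 and 0.875 in sham and 0.301 and 0.0869 in ligated rabbits, which overlapped. In the BA intima, NPY1R per MYH11 count was 0.115 and 0.29 in sham and 0.0829 and 0.111 in ligated rabbits, and in the BA media it was 0.0513 and 0.097 in sham and 0.142 and 0.0963 in ligated rabbits. Per 1000 counts of ACTA2, the BA intima had 2.74 and 5.74 in sham and 0.761 and 1.05 in ligated rabbits. The BA media had 0.895 and 2.27 in sham and 0.651 and 0.773 in ligated rabbits. The groups thus did not overlap against either gene in the BT media and the BA intima. In the BT intima and the BA media they did not overlap against ACTA2 and overlapped against MYH11. Ligated rabbit 5 had the lowest sum of smooth muscle markers in the BT intima, 12030 CPM.

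Across wall layers, CALCRL was on the intimal side in every pair and NPY1R was not tied to 1 layer. The intima exceeded the media of the same rabbit and location in 8 of 8 CALCRL pairs, by 1.62 to 7.33 times in sham rabbits and by 2.41 to 41.0 times in ligated rabbits. The median ratio was 4.02, and the mean was 693 CPM over the 8 intimal and 141 CPM over the 8 medial libraries (log2 difference 2.03 ± 0.48 SE). The ratio of 41.0 was that of the BA of rabbit 6, the artery whose media had little CALCRL.

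For NPY1R the intima exceeded the media in 2 of 8 pairs, those of the BA of sham rabbits 3 and 4, with ratios of 2.69 and 1.19. At the BT of the same rabbits the ratios were 0.193 and 0.73. In ligated rabbits all 4 ratios lay between 0.467 and 0.614, so that the receptor was lower in the intima at both locations. The mean was 119 CPM in the intima and 168 CPM in the media (log2 difference -0.51 ± 0.29 SE), and libraries of the layers overlapped for both genes. In the BA, smooth muscle markers summed to 83880 and 40370 CPM in the intima of sham rabbits 3 and 4. Their BA media had 99040 and 91870 CPM, and their BT intima 22430 and 22390 CPM. Ligated rabbits 5 and 6 had 48140 and 53550 CPM in the BA intima and 12030 and 57760 CPM in the BT intima. The part of smooth muscle in the NPY1R ratios was not tested.

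**Figure D3:**
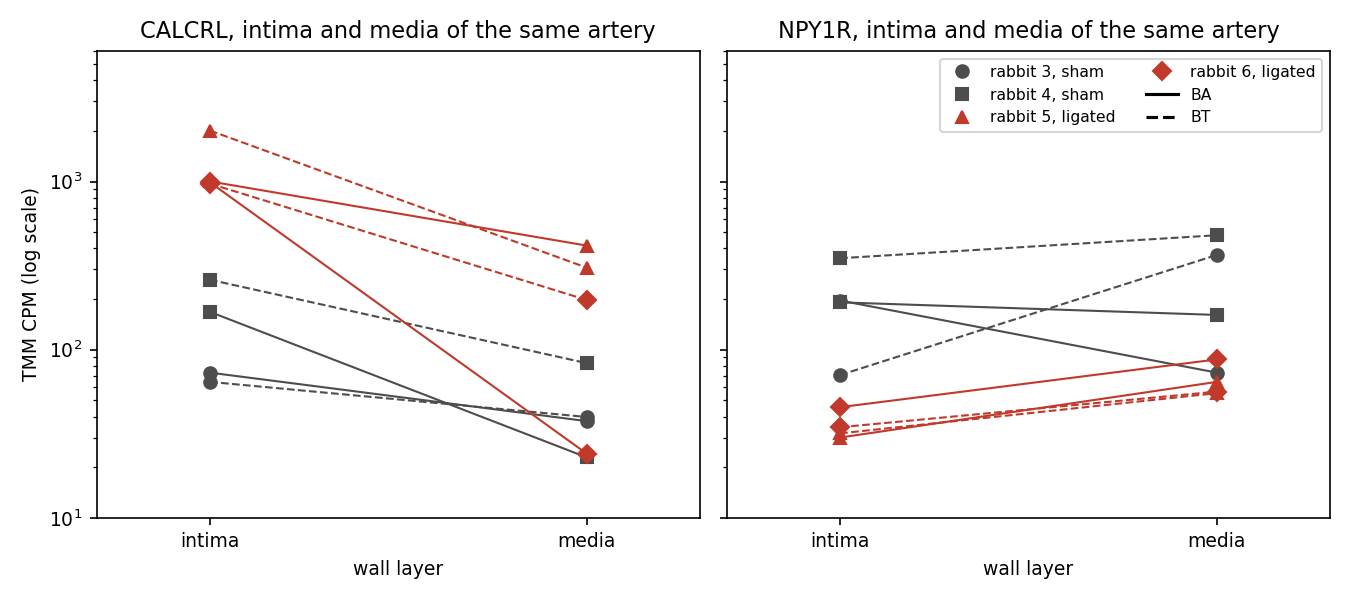
TMM CPM of CALCRL (left) and NPY1R (right) in the intima and media of the same rabbit and location, on a log scale, 1 line per pair. All 8 lines of CALCRL fall from intima to media. For NPY1R, 2 solid grey lines, the BA of sham rabbits, fall and the other 6 climb.

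Location gave no common direction for CALCRL. Its BT value was above the BA value in 2 of 4 rabbits in the intima, with ratios of 0.881 to 2.01, and in 3 of 4 rabbits in the media, with ratios of 0.739 to 8.20. The fitted log2 differences, BT over BA, were 0.51 ± 0.48 SE in the intima and 0.61 ± 0.59 SE in the media. For NPY1R, the media of both sham rabbits had more at the BT, by 5.01 and 2.98 times, while the ratios in ligated rabbits 5 and 6 were 0.857 and 0.643. In the intima the NPY1R ratios were 0.361, 1.83, 1.06 and 0.76 in rabbits 3 to 6, with a log2 difference of -0.04 ± 0.46 SE.

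Ordered by mean, CALCRL was highest in the ligated BT intima (1491 ± 735 CPM, SD, n = 2) and ligated BA intima (996 ± 9.31 CPM). The ligated media followed with 253 ± 77.7 CPM at the BT and 220.1 ± 277 CPM in the BA, and then the sham intima with 162.5 ± 139 CPM at the BT and 120.4 ± 67.0 CPM in the BA. The sham media were lowest, with 61.5 ± 30.7 CPM at the BT and 30.25 ± 10.4 CPM in the BA. Of the neighbors in this order, the libraries of the ligated BA intima lay wholly above those of the ligated BT media, and those of the sham BT media above those of the sham BA media. All other neighbors overlapped.

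For NPY1R the order began with the sham BT media (423 ± 80.3 CPM), sham BT intima (210.4 ± 197.5 CPM) and sham BA intima (194 ± 3.40 CPM). The BA media came next, with 117 ± 62.2 CPM in sham and 75.9 ± 16.4 CPM in ligated rabbits. The ligated BT media had 55.7 ± 0.82 CPM, the ligated BA intima 37.8 ± 10.95 CPM and the ligated BT intima 33.2 ± 1.97 CPM. The BT intima and BA intima overlapped under sham conditions and again after ligation, as did the sham and ligated BA media, and the libraries of the other neighbors did not overlap.

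Counts of both receptors can be set against each other within a library, where scaling has no part. Such a ratio does not tell a change in 1 receptor from a change in both. Nor does it tell a change in RNA per cell from a change in the cells collected. The level of this ratio depends on the lengths of the genes, so only its change between libraries is read. In the sham intima, 0.372 to 0.91 CALCRL counts were found per NPY1R count, and in the ligated intima 21.7 to 63.3. In the sham media the ratio was 0.109 to 0.515. In the ligated media it was 6.47 and 5.58 for the BA and BT of rabbit 5 and 3.51 for the BT of rabbit 6, but 0.275 for the BA of rabbit 6, within the sham range. NPY1R itself overlapped between the sham and ligated BA media.

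Set against PECAM1, CALCRL still separated sham from ligated libraries in the intima, while in the media their ranges overlapped. In the intima, CALCRL had 0.344 to 0.524 counts per PECAM1 count in sham and 1.504 to 2.48 in ligated rabbits, without overlap. PECAM1 itself was 187 and 498 CPM in the sham BT intima and 641 and 812 CPM in the ligated BT intima, with a log2 fold change of 1.10 ± 0.55 SE (q = 0.486, edgeR). In the media, CALCRL per PECAM1 count was 0.621 to 12.9 in sham and 2.31 to 4.18 in ligated rabbits. Sham rabbit 3 set the upper end in both medial tissues, where its PECAM1 was at 2.92 and 4.65 CPM.

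PECAM1 is 1 of 10 endothelial markers, and others had different levels in sham and ligated libraries as well. In the BT intima, 8 of 10 had a positive log2 fold change, with a median of 0.95 beside -0.13 for all genes tested. Of the 10, 0 were called by edgeR and 5 had an unadjusted p under 0.05, beside 0% and 11.6% of all genes tested. DESeq2 called 3, beside 7.02% of all genes to which it gave a q-value. TEK, the angiopoietin receptor of ECs, was 80.1 to 102 CPM in the sham and 277 to 347 CPM in the ligated BT intima, EMCN, endomucin, had 1.22 to 8.05 CPM in sham and 33.0 to 35.2 CPM in ligated libraries, and CDH5, the cadherin of ECs, had 12.6 to 17.4 CPM in sham and 54.2 to 82.6 CPM in ligated libraries. These did not overlap. VWF, von Willebrand factor, had a lower mean after ligation, 457 against 1512 CPM, with overlap. KDR, another of the 10, was lower without overlap, at 5.86 to 15.6 CPM in sham and 0 to 0.518 CPM in ligated libraries. For BA intima, 5 of 9 tested had a positive log2 fold change. Of the 9, 0 were called by edgeR and 2 had an unadjusted p under 0.05, beside 0% and 5.95% of all genes tested. DESeq2 called 1, beside 1.54% of all genes to which it gave a q-value. EMCN was among the 5, at 0.897 to 2.82 CPM in the sham and 22.7 to 65.0 CPM in the ligated BA intima, without overlap. PECAM1 (179 to 444 in sham and 445 to 657 CPM in ligated libraries), TEK (84.6 to 173 and 203 to 398.5 CPM) and FLT1 (6.82 to 61.8 and 71.7 to 109.8 CPM) did not overlap either. Of all genes tested there, 15.4% were higher without overlap. CDH5 overlapped, and VWF, CLDN5, TIE1 and ESAM had lower means after ligation, with overlap.

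CALCRL per VWF count was 0.0731 to 0.143 in sham and 0.934 to 8.35 in ligated intima, and the summed endothelial markers of the intima overlapped, at 1221 to 5855 CPM in sham and 2300 to 3959 CPM in ligated libraries. CALCRL was not set against the other endothelial markers, among them EMCN, TEK and CDH5, so the separation is given for PECAM1 and VWF only. Mean VWF was lower in the ligated intima, at 842 against 1487 CPM in the BA and 457 against 1512 CPM at the BT. Mean EMCN went from 1.86 to 43.85 CPM in the BA intima and from 4.635 to 34.1 CPM in the BT intima. In the same tissues mean CALCRL went from 120.4 to 996 CPM and from 162.5 to 1491 CPM. The part of endothelial RNA in the intimal CALCRL values was not tested.

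**Figure D4:**
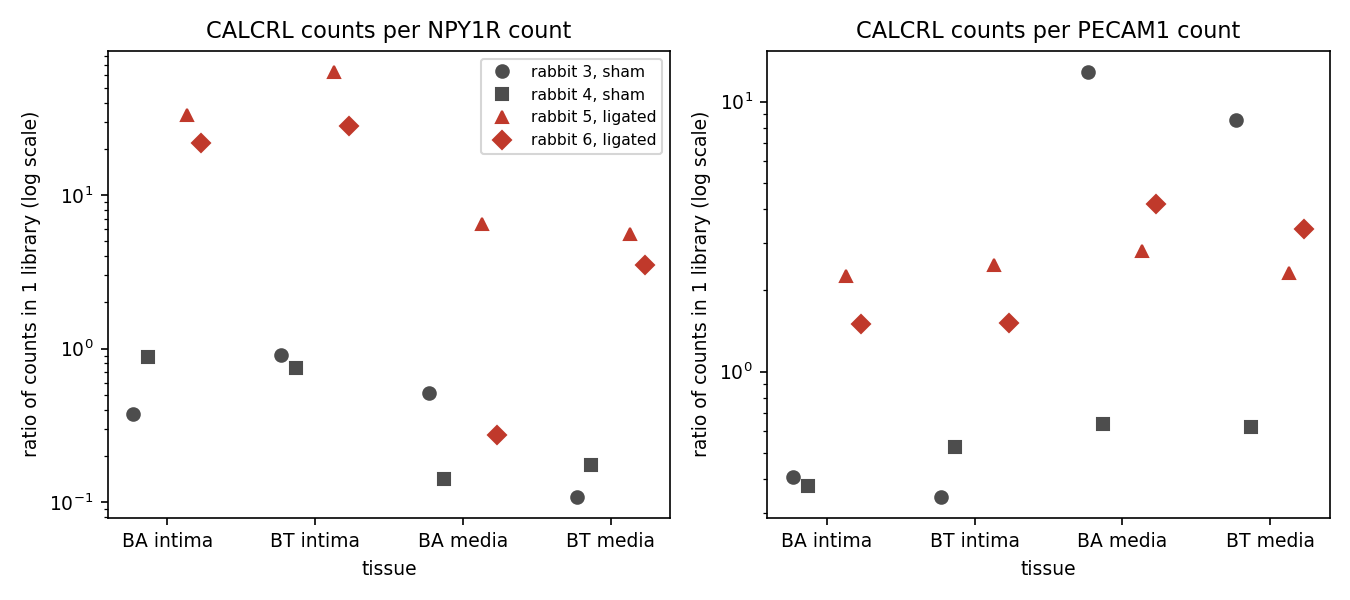
Counts of CALCRL per count of NPY1R (left) and per count of PECAM1 (right) in each library, on log scales, by tissue. Each symbol is 1 rabbit. Left, the 4 ligated intimal libraries lie between 21.7 and 63.3 and the 4 sham intimal libraries between 0.372 and 0.91. Right, ligated and sham libraries are apart in the intima and overlap in the media.

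Around the receptors, 102 genes of peptide systems and receptor coupling were listed by function, of which 80 were measured. Of these, 1 of 44 tested was called in the BT media after ligation, against 2.35% of all genes tested there. The corresponding counts by edgeR were 0 of 45 for BA intima, 0 of 48 for BT intima and 0 of 38 for BA media, where 0%, 0% and 0.807% of all genes tested were called. At an unadjusted p under 0.05 there were 8 of 45, 6 of 48, 5 of 38 and, for BT media, 10 of 44, beside 5.95%, 11.6%, 13.6% and 16% of all genes tested. DESeq2 called 1 listed gene for BA intima (PRKAR2B, a regulatory subunit of protein kinase A), 6 for BT intima, 0 for BA media and 5 for BT media, beside 1.54%, 7.02%, 7.34% and 7.83% of all genes to which it gave a q-value. The listed genes had median log2 fold changes of -0.32 (BA intima), -0.02 (BA media), -0.53 (BT intima) and -0.14 (BT media), beside -0.10, -0.15, -0.13 and 0.03 for all genes tested.

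The gene called was RAMP2, whose protein joins CALCRL to form an adrenomedullin receptor. In the BT media RAMP2 was 9.30 and 49.7 CPM in sham rabbits 3 and 4 and 232 and 153 CPM in ligated rabbits 5 and 6 (log2 fold change 2.69 ± 0.62 SE, q = 0.0449, edgeR). Its call was lost with RLE size factors (q = 0.0511), with the filterByExpr filter (q = 0.0742), in the fit over all 16 libraries (q = 0.337), without ligated rabbit 5 (q = 0.119) or without ligated rabbit 6 (q = 0.0957). The fold change itself was 1.95 on the log2 scale without sham rabbit 3 and 4.38 without sham rabbit 4. In the intima, RAMP2 was 151 and 858 CPM in the sham BA and 348 and 958 CPM in the ligated BA, and it was 266 and 485 CPM in the sham BT and 680 and 884 CPM in the ligated BT. The log2 fold changes were 0.38 (q = 0.99) at the BA and 1.06 (q = 0.438) at the BT.

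RAMP2 was also called higher in the intima than in the media, with a mean of 579 against 122 CPM (log2 difference 2.47 ± 0.53 SE, q = 0.0136, edgeR). Of all genes tested, 7.94% were called between layers, in either direction. The call of RAMP2 was lost without rabbit 5 (q = 0.0629) or rabbit 6 (q = 0.169). RAMP2 and CALCRL were thus both on the intimal side of the wall. CALCRL had 0.196 to 0.537 counts per RAMP2 count in the sham intima and 1.03 to 2.96 in the ligated intima. In the media this ratio overlapped, at 0.0972 to 4.28 in sham and 0.635 to 1.86 in ligated libraries. RAMP1 and RAMP3, the other partners, were not analysed here.

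The CGRP genes CALCA and CALCB had a count of 0 in all 16 libraries. Adrenomedullin, ADM, had counts in 15 of 16 libraries, at 75.1 CPM in the BT intima of sham rabbit 3 and at most 21.6 CPM elsewhere. Intimal ADM at the BT was 75.1 and 5.12 CPM in sham and 3.11 and 1.24 CPM in ligated rabbits (log2 fold change -4.20, q = 0.341, edgeR). In the BT media it was 3.49 and 21.6 CPM in sham and 2.49 and 0.234 CPM in ligated rabbits (log2 fold change -3.30, q = 0.302). DESeq2 called the difference in the BT intima. The groups did not overlap in these tissues or in the BA media. In the BT intima of sham rabbit 3 the macrophage markers summed to 753 CPM, against 38.5 to 346 CPM in the other 15 libraries, and their part in its ADM level was not tested.

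Proteins that remove these peptides were measured as well. ACKR3, a decoy receptor that takes up adrenomedullin, was called lower in the intima, with a mean of 82.7 CPM against 129 CPM in the media (log2 difference -0.67 ± 0.17 SE, q = 0.026, edgeR). Its call was lost without any 1 of the 4 rabbits, with rabbit and location as a block (q = 0.0738), without composition normalization (q = 0.0957) and without a filter on low values (q = 0.0707). MME, neprilysin, an enzyme that cleaves vasoactive peptides, was 35.2 and 26.5 CPM in the sham BT media and 3.12 and 0.117 CPM in the ligated BT media (log2 fold change -4.41 ± 1.18 SE, q = 0.0812). MME lay lower in ligated libraries without overlap in all 4 tissues, as did 3.04% of the 7930 genes tested in all 4, at q = 0.496 or above in the other 3, and DESeq2 called it in the BT media.

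The rest of the NPY system was scarce. NPY itself, which is made in nerves, had 66 counts in the BT intima of sham rabbit 3, 9 counts in the BA media of sham rabbit 4 and a count of 0 in the other 14 libraries. NPY2R had at most 2 counts and NPY4R a count of 0 in every library. DPP4, a peptidase that shortens NPY, was at 148 CPM in the BT intima of sham rabbit 3, at 5.56 CPM in that of sham rabbit 4 and at 0 and 1 counts in the ligated BT intima. In every other library DPP4 was at 6.86 CPM or less. The BT intima of sham rabbit 3, which had the highest NPY and DPP4 values, stood apart in other markers too, with the macrophage sum of 753 CPM, SLC22A6 at 265 CPM against 44.2 CPM or less in the other libraries and SLC6A13 at 169 CPM against 21.0 CPM or less, both markers of leptomeningeal cells. Their part in these values was not tested.

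The endothelin genes give a comparison with another constrictor system. EDNRA, the endothelin receptor of smooth muscle, was 327 and 334 CPM in the sham BT media and 350 and 304 CPM in the ligated BT media (log2 fold change -0.004 ± 0.30 SE, q = 0.995, edgeR). Fold changes of EDNRA in the other tissues lay between -0.26 and 0.25 on the log2 scale, at q = 0.766 or above. The intima was called lower than the media in EDNRA (log2 difference -1.13 ± 0.24 SE, q = 0.0124), a call lost without rabbit 3, 4 or 6 (q = 0.0619 to 0.0918). EDNRB, the other endothelin receptor, had 68 and 48 counts in the BA and BT intima of sham rabbit 3 and at most 1 count elsewhere.

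EDN1, the endothelin made by ECs, was 275 and 310 CPM in the sham BA intima and 40.6 and 116 CPM in the ligated BA intima (log2 fold change -1.90 ± 0.57 SE, q = 0.734, edgeR). At the BT, intimal EDN1 was 118 and 363 CPM in sham and 6.74 and 57.6 CPM in ligated rabbits (log2 fold change -2.91 ± 1.05 SE, q = 0.378). Neither passed the test, although the groups did not overlap at either location. DESeq2 called EDN1 in the BT intima.

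The angiotensin receptors AGTR1 and AGTR2 were low or absent from the counts. LNPEP and ATP6AP2, listed with the receptors, ranged from 19.8 to 127 CPM and from 281 to 790 CPM. AGTR1, the receptor behind constriction by angiotensin II, ranged from 0 to 12.9 CPM in the intima and from 8.44 to 42.4 CPM in the media, and its log2 difference between layers was -1.91 (q = 0.122, edgeR). In the BA media AGTR1 was 42.4 and 20.6 CPM in sham and 8.44 and 16.5 CPM in ligated rabbits (log2 fold change -1.31 ± 0.73 SE, q = 0.472). AGTR2 had a count of 0 in all 16 libraries. ACE, which makes angiotensin II, lay among the same 3.04% of genes, at 8.85 and 62.6 CPM in the sham and 5.11 and 6.84 CPM in the ligated BA intima, with q from 0.463 to 0.801. PLCB4, a listed coupling gene, also lay lower in ligated libraries without overlap in every tissue. It was 322 to 365 CPM in the sham and 186 to 214 CPM in the ligated BT media.

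**Figure D5:**
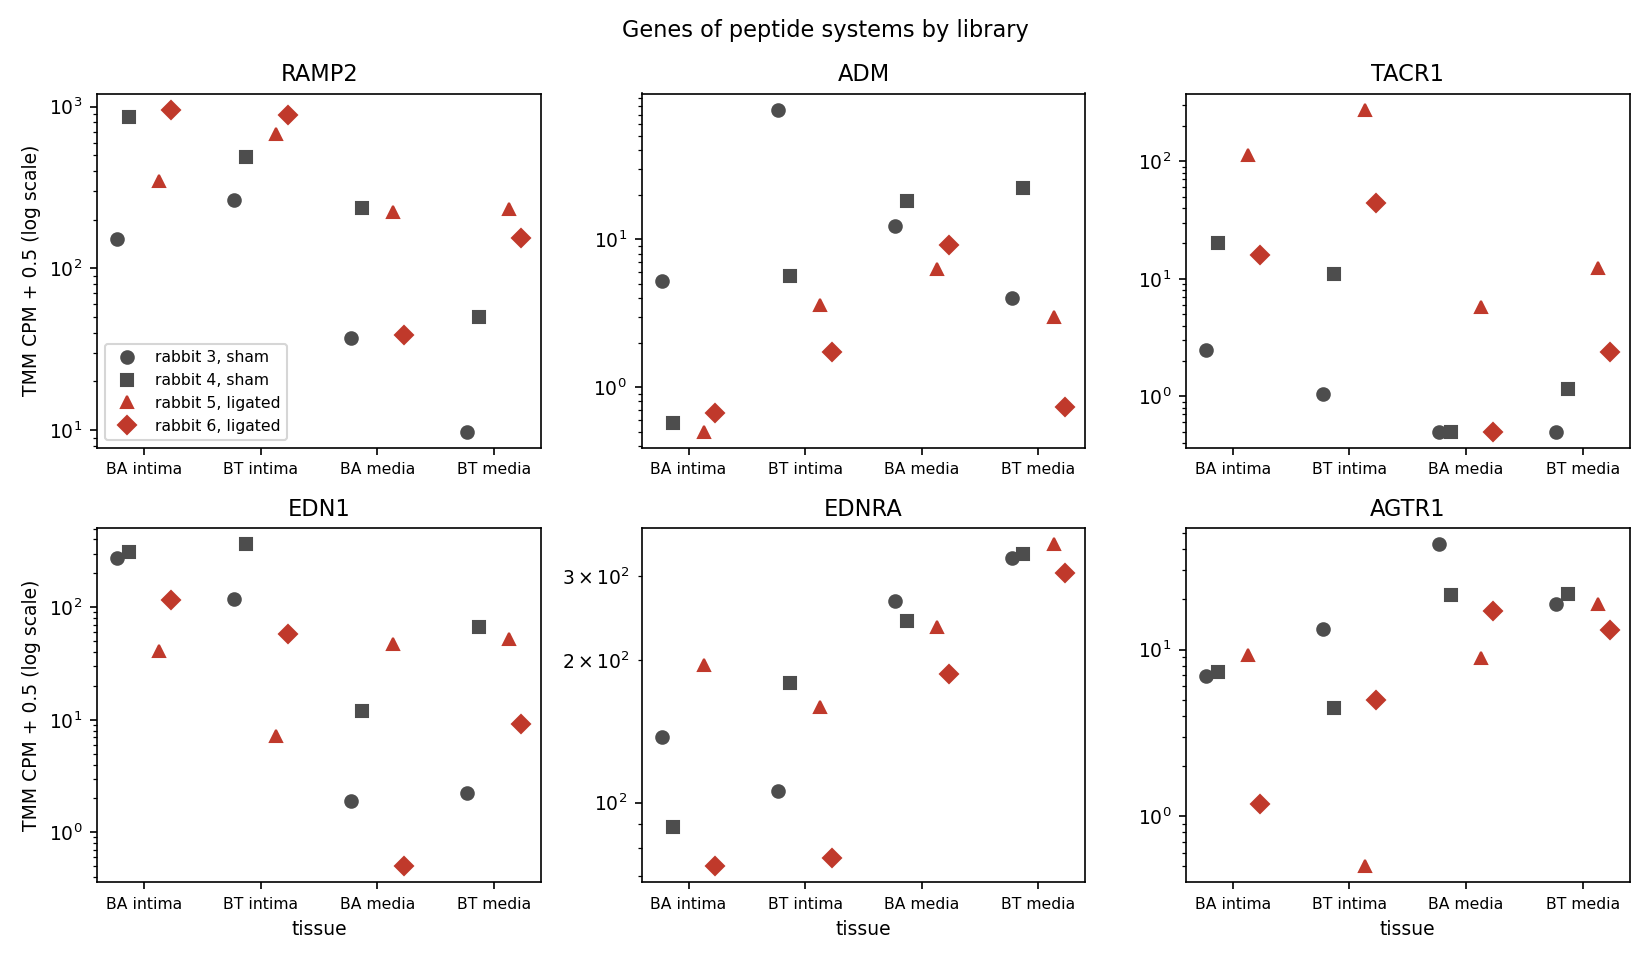
TMM CPM plus 0.5 of 6 genes of peptide systems in each library, on log scales that differ between panels, by tissue. Each symbol is 1 rabbit. RAMP2 in the BT media is 9.30 and 49.7 CPM in sham and 232 and 153 CPM in ligated rabbits, while EDNRA in the same tissue is 304 to 350 CPM in all 4.

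Among the other peptide receptors, TACR1, the neurokinin receptor for substance P, had the distribution most like that of CALCRL. TACR1 was 1.97 and 19.5 CPM in the sham BA intima, 113 and 15.6 CPM in the ligated BA intima, 0.541 and 10.4 CPM in the sham BT intima and 275 and 43.8 CPM in the ligated BT intima. Its changes with ligation did not pass the test (q = 0.842 for the BA and 0.325 for the BT, edgeR), and DESeq2 called that of the BT intima. TACR1 was called higher in the intima, with a mean of 60.0 against 2.45 CPM (q = 0.0109), and that call was lost without rabbit 4 (q = 0.104), 5 (q = 0.0729) or 6 (q = 0.0662). AVPR1A, a vasopressin receptor of smooth muscle, was called lower in the intima, with a mean of 4.06 against 13.3 CPM (q = 0.0223), but not with rabbit and location as a block (q = 0.141) or without rabbit 3, 5 or 6 (q = 0.149 to 0.181).

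Downstream of the receptors, 1 of 19 coupling genes tested was called between layers, beside 7.94% of all genes tested. It was ADCY4, an adenylyl cyclase, with a mean of 19.6 CPM in the intima and 1.74 CPM in the media (q = 0.00597, edgeR), a call lost without rabbit 5 (q = 0.0557) or rabbit 6 (q = 0.0738). GNAI2, an inhibitory G protein subunit of the kind NPY1R uses, was 8.13 and 15.5 CPM in the sham BT media and 39.3 and 57.8 CPM in the ligated BT media (log2 fold change 2.04 ± 0.63 SE, q = 0.126). Intimal GNAI2 at the BT was 38.2 and 22.1 CPM in sham and 78.1 and 138 CPM in ligated rabbits (log2 fold change 1.83 ± 0.54 SE, q = 0.315). DESeq2 called GNAI2 in both tissues of the BT.

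Likeness of pattern was ranked over the 16 libraries by Pearson's r of log2(CPM + 0.5), among 8701 genes with a mean above 1 CPM. These libraries share 4 rabbits, so r is a description. Most like CALCRL were PCSK5 (r = 0.94), a proprotein convertase, TACR1 (r = 0.938), TSPAN1 (r = 0.932), a tetraspanin, PTPRG (r = 0.926), a receptor tyrosine phosphatase, and PDGFB (r = 0.921), a growth factor of ECs for mural cells. PTPRG ranged from 162 to 615 CPM in the sham intima, from 640 to 1054 CPM in the ligated intima and from 45.0 to 241 CPM in the media. PDGFB was at 0.169 to 2.47 CPM in the sham intima and 2.98 to 13.5 CPM in the ligated intima.

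Most like NPY1R were ZMYND11 (r = 0.909), a chromatin reader, TCAP (r = 0.899), a sarcomere protein of striated muscle, CRY2 (r = 0.876), a repressor of the circadian clock, PHIP (r = 0.872) and RUNX1T1 (r = 0.87), a transcriptional corepressor. CRY2 ranged from 11.4 to 36.5 CPM in the sham intima and from 4.41 to 12.0 CPM in the ligated intima, and from 24.1 to 59.6 CPM in the sham media and 12.8 to 21.2 CPM in the ligated media. TCAP was at 9.20 to 32.5 CPM in the sham intima and 2.96 to 5.48 CPM in the ligated intima. CALCRL and NPY1R themselves had r = -0.608. The named genes changed with the rabbits used, since no more than 3 of the 5 for CALCRL and 2 of the 5 for NPY1R were named again without any 1 rabbit.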

How the data were processed

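The authors amplified the RNA of laser-microdissected tissue, aligned single reads to the rabbit genome build OryCun2.0 with STAR and counted them per gene with featureCounts 1.6.2, as the submitters' processing notes and the study's methods give it. The deposited values are these raw counts, without normalization. The entry without a symbol, 13.8% to 18.7% of the counts of a library, was left out, and 22 symbols replaced by dates were kept as they stood. All 16 columns of the 4 rabbits were used.

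CPM were computed with TMM scaling over all 16 libraries. Differences were fitted with edgeR 4.0.16 in R 4.3.3, by its quasi-likelihood F test in the older form (legacy = TRUE), over genes with a mean above 1 CPM in a group, at q under 0.05 after Benjamini-Hochberg adjustment over all genes tested. Ligated and sham tissue was compared in 4 separate fits of 2 against 2 libraries, layers in 1 fit of 16 libraries, and locations in 1 fit of 8 libraries per layer. Standard errors are the log2 fold change divided by the square root of F. The study's filter was on RPKM, for which gene lengths were not used here. Ligated and sham animals were different rabbits and could not be paired, whereas layers and locations came from the same rabbits. Deviations of 2 tissues of the same rabbits from their group means correlated at -0.04 to 0.39.

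CALCRL and NPY1R, and the lists of peptide system, coupling and cell marker genes, were chosen with earlier results of these data known. Named genes are these 2 receptors, measured genes of the lists, and the 5 genes with the highest r to each receptor. A chi-square test of counts, divided by its degrees of freedom, gave 18.6 to 414 for the replicate rabbits of a group, which differed by more than counting error. Alternatives were no composition normalization, RLE scaling, no filter, filterByExpr, DESeq2 1.42.0, a fit over 16 libraries, a replicate block and leaving out each rabbit, and for the most alike genes Spearman's rho and a pseudocount of 1 CPM. Summaries used Python 3.11.15, numpy 2.4.6 and pandas 2.3.3.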

Additional observations from a re-analysis of the deposited data

Results flagged for a closer look

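The log2 ratio of intima to media was examined in 8 pairs for 44 genes, and in 5 genes 1 pair lay far from the other 7 by Dixon's test, which chance does in about 1 of 20 genes. For CALCRL the pair was the BA of ligated rabbit 6, with a log2 ratio of 5.33. Since CALCRL was picked from these levels, that value is a description and nothing is read from the test. For NPR2, a natriuretic peptide receptor, it was the BA of ligated rabbit 5 (-3.35), as it was for GNAI2 (-2.18). For PLCB4, a phospholipase of Gq signaling, it was the BT of ligated rabbit 5 (-2.72), and for ADCY2, an adenylyl cyclase, the BT of sham rabbit 3 (6.82).

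The change with ligation went in opposite directions, without overlap of libraries, for CRCP and EDN3, and these differences were not tested. CRCP, a protein that couples the CGRP receptor to its G protein, had a log2 fold change of 0.61 in the BT intima and -0.60 in the BT media. EDN3, an endothelin, had 1.76 for BA intima and -5.20 for BT intima, at 13.5 CPM or less in every library.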

How the results depend on the processing

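With 2 rabbits per group, 1 animal can set a value, and q-values rest on the spread shared across genes. Scaling without TMM, RLE factors, other filters, DESeq2 and the fit over 16 libraries left the direction of every CALCRL and NPY1R difference as reported. Without a rabbit, log2 fold changes of CALCRL ranged from 2.59 to 3.747 for BA intima, 2.533 to 4.511 for BT intima, 1.605 to 2.679 for BT media and -0.315 to 3.773 for BA media, where the lowest was that without rabbit 5. Those of NPY1R ranged from -2.675 to -2.10, -3.39 to -1.122, -3.099 to -2.699 and -1.051 to 0.064 in the same order, and the last was that without rabbit 4. The NPY1R difference between BT and BA intima (-0.829 to 0.353) was 0.353 without rabbit 3 and 0.101 without rabbit 6. The causes were not tested.

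The number of genes called moved more. In the BA intima, 0 genes were called by edgeR (534 at an unadjusted p under 0.05), 123 without a filter, 122 by DESeq2, 10 in the fit over 16 libraries and 0 to 126 without a rabbit. In the BT intima, 0 were called (1079 at an unadjusted p under 0.05), and 346, 613, 60 and 0 to 116 under the same alternatives. In the BA media, 71 were called, and 507, 508, 38 and 0 to 0, with 41 under filterByExpr. In the BT media, 206 were called, and 557, 594, 19 and 38 to 645. Between layers 719 were called, 1221 without a filter, 1345 by DESeq2 and 132 to 549 without a rabbit. Between BT and BA, 0 were called in the intima and 0 in the media (282 and 453 at an unadjusted p under 0.05), 93 and 64 without a filter, 28 and 33 by DESeq2, and 0 to 0 and 0 to 13 without a rabbit.

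Layers and locations were paired by animal. With rabbit and location as a replicate block, 813 genes were called between layers, and with the rabbit as a block 1 was called between BT and BA intima and 2 between BT and BA media. Of the genes named, the block ended the calls of ACKR3 and AVPR1A between layers. The blocked CALCRL and NPY1R differences between layers were 2.14 and -0.60 on the log2 scale.

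Of the 5 genes named as most like CALCRL, 3 were named again by Spearman's rho and 0 to 3 without a rabbit. For NPY1R these numbers were 2 and 0 to 2.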
